A study of Mus musculus with 30 samples.

Results

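Pleiotrophin (Ptn), midkine (Mdk) and the syndecans Sdc1, Sdc2, Sdc3 and Sdc4 were followed by RNA-seq in mouse C2C12 myotubes, 6 genes out of 16025 in the table. The members were listed by gene symbol, and Ptn was chosen by its measured rise after ginsenoside Rb2: among the 70 genes called higher in Rb2 against control it stood at rank 3 by fold change. The values of Rb2 against control are therefore given as a description, and so are the comparisons of Ptn that reuse the control or the Rb2 libraries. All 6 genes were in the table and 5 passed the filter on low counts. Mdk did not.

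C2C12 is a single wild-type mouse myoblast line, differentiated here in medium with 2% fetal bovine serum into myotubes, the multinucleated muscle cells. Every group held 3 libraries, which the series' design text calls biological replicates. The groups were vehicle (control), D-galactose at 20 mg/mL for 24 h (Dgal), and 4 preparations for 12 h: Korean Red Ginseng water extract (RGW), its saponin fraction (SFr) and its non-saponin fraction (NSFr), each at 100 µg/mL, and ginsenoside Rb2 at 20 µM. In RGW_Dgal, SFr_Dgal, NSFr_Dgal and Rb2_Dgal the same preparations came first, for 12 h, and D-galactose followed for 24 h. The labels name cellular ageing as the purpose of the D-galactose, a hexose sugar. The labels do not say when the vehicle cultures and those given a preparation alone were harvested, so D-galactose and the added time cannot be told apart.

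Pleiotrophin and midkine form a family of secreted, heparin-binding growth factors. They bind the sulfated sugar chains of cell surface proteoglycans and signal through receptors such as the phosphatase Ptprz1, the kinase Alk, the endocytic receptor Lrp1, integrins and the surface form of nucleolin. Syndecans are transmembrane proteoglycans that carry heparan sulfate, act as co-receptors for growth factors and matrix proteins, and are shed by proteases. Syndecan-3 is also known as a pleiotrophin receptor, and syndecan-3 and syndecan-4 mark the satellite cells of muscle.

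Promoter windows are shown for Ptn, whose level ranged most between groups among the 5 tested members, and for Sdc3 and Sdc4, the syndecans whose group means followed that of Ptn most closely in either direction. Each runs from 250 bases before to 50 bases after a RefSeq start site (build GRCm38.p6), 5′ to 3′ on the strand of the gene. Capitals mark a GC box (GGGCGG on either strand) or a TATA box (TATAA on either strand).
Ptn promoter, chr6:36810130-36810429, minus strand: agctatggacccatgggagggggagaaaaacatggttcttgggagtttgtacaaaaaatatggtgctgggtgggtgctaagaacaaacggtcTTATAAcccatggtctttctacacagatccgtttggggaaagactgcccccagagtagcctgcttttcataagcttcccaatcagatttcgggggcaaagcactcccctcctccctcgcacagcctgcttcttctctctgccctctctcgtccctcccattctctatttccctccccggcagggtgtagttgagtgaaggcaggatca
Sdc3 promoter, chr4:130792287-130792586, plus strand: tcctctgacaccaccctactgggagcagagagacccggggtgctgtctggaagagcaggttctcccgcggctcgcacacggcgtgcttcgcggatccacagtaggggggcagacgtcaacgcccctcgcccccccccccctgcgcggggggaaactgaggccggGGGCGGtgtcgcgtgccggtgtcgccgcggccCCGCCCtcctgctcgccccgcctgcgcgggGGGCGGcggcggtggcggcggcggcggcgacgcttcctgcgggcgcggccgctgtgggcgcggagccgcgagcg
Sdc4 promoter, chr2:164443139-164443438, minus strand: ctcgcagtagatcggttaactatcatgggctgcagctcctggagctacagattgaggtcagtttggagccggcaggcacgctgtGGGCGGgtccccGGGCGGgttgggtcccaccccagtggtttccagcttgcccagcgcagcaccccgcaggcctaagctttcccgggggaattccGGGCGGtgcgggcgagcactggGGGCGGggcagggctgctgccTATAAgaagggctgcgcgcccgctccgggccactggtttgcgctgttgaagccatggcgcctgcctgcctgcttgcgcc
The Ptn window had a GC content of 52%, 6 CpG dinucleotides and no GC box. Its single stretch in capitals is a pair of TATAA matches on opposite strands that overlap, 158 and 157 bases before the start site. The Sdc3 window held 77.7% GC, 44 CpG and 3 GC boxes, and the Sdc4 window 67.7% GC, 22 CpG, 4 GC boxes and a TATAA that begins 29 bases before the RefSeq start. That Sdc4 start lies 699 bases inside the gene as bounded below by GENCODE vM21, against 41 bases for Ptn and 0 for Sdc3. The whole Sdc4 window therefore lies within those bounds. The Sdc1 window, which is not shown, held 66.3% GC and 3 GC boxes. Over all 32851 promoter windows of the same length, 35.7% held a GC box and 24.9% a TATAA. Motifs for the aryl hydrocarbon receptor (GCGTG, in 32.4% of windows) and for the antioxidant response (TGACNNNGC, in 12.4%) were not found in the Ptn window. GCGTG matched at 2 places in the Sdc3 window and at 1 in the Sdc4 window. On GRCm38, Ptn lies on chromosome 6 from 36714929 to 36810220, Mdk on chromosome 2 from 91929805 to 91932297 and Sdc4 on chromosome 2 from 164424247 to 164443887, all on the minus strand. Sdc1 lies on chromosome 12 from 8771323 to 8793715, Sdc2 on chromosome 15 from 32920723 to 33034935 and Sdc3 on chromosome 4 from 130792537 to 130826319, all on the plus strand.

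The libraries held 22209306 to 30218420 counts, so that 3 counts amounted to 0.0993 to 0.135 CPM (counts scaled to the total of the library). The share of counts from the mitochondrial genome was 0.727% to 1.36% without D-galactose and 0.972% to 1.69% with it. The 6 SFr and SFr_Dgal libraries stood apart in marker genes. Summed over the 6 myotube markers in the table, levels were 13330 to 14910 CPM in the other 8 groups, 10600 to 11320 CPM in SFr and 11850 to 11910 CPM in SFr_Dgal. The 5 fibroblast markers summed to 144.5 to 171.8 CPM in the other groups, against 333.3 to 352.9 CPM in SFr and 305.1 to 317.3 CPM in SFr_Dgal, and the 6 myoblast markers to 217.3 to 249.5 CPM against 166.3 to 184.2 CPM. Dcn made up most of the fibroblast sum (121.4 CPM in control, 302.6 in SFr), and 3 of the 5 markers were called higher in SFr against control (Dcn, Pdgfra and Lum), while Twist2 and Col15a1 were not. Of the immune markers, Cd68 alone passed 1 CPM and Ptprc reached 1 count at most. Cd68 was at 0.74 ± 0.278 CPM in control, 1.85 ± 0.261 in Dgal, 3.35 ± 0.142 in SFr and 5.61 ± 0.127 in SFr_Dgal. It was called higher with D-galactose in all 5 backgrounds, and after SFr against control, Dgal and NSFr. The 7 bone and cartilage markers summed to 75.4 to 89.41 CPM in the other 8 groups, 95.55 to 106 in SFr and 91.34 to 93.67 in SFr_Dgal. Of the 3 tested, 1 was called higher and 1 lower in SFr against control, beside 43.1% of all genes. The 5 glia and neuron markers, of which Tubb3 alone was tested, summed to 15.11 to 22.52, 13.92 to 15.05 and 12.67 to 13.79 CPM in the same order. None of the 5 fat cell or 4 endothelial markers passed 1 CPM in a group mean.

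Per kilobase of exon, the syndecans differed widely among themselves, and both growth factors lay below all 4 of them. Over the 30 libraries the mean level was 211 RPKM (CPM per kilobase of exon) for Sdc2, 86.5 for Sdc1, 63.8 for Sdc4, 16.5 for Sdc3, 2.63 for Ptn and 0.0855 for Mdk. Syndecan-2 thus made up most of the syndecan mRNA in every group, between 53.6% ± 0.782 of the summed RPKM in Rb2_Dgal and 57.4% ± 1.12 in control (SD, n = 3). Sdc1 supplied 20.5% to 24.8%, Sdc4 15.3% to 18.4% and Sdc3 3.37% to 5.43%. The summed syndecan level was 408 ± 5.76 RPKM in control, the highest of the 10 groups, and 348 ± 2.26 RPKM in SFr_Dgal, the lowest. For comparison, the glypican Gpc1, another heparan sulfate proteoglycan of the cell surface, stood at 368 to 421 RPKM in the group means.

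**Figure D1:**
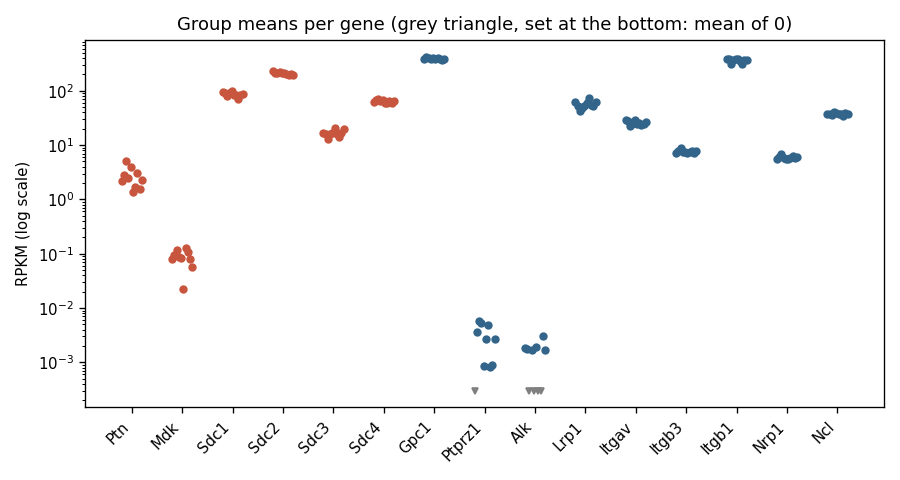
Mean level of each group on a log scale of RPKM (CPM per kilobase of exon), with 1 point for each of the 10 groups, for the 6 members (red) and for other receptors and proteoglycans (blue). Sdc2 is the highest member at a mean of 211 RPKM, Ptn lies near 2.63, and Mdk, Ptprz1 and Alk lie at the bottom, with grey triangles where all 3 libraries of a group were at 0.

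Mdk was barely present. Its counts ran from 0 to 7 per library, with 0 in 3 libraries and 91 counts in all 30. Pooled over a group, the lowest value was 2 counts in Dgal, or 0.0284 CPM (exact 95% Poisson interval 0.00344 to 0.103), and the highest were 13 counts in RGW_Dgal, or 0.163 CPM (0.0869 to 0.279), and 13 in SFr. These intervals cover counting error only. Each group overlapped with the next in the order of the means. Dgal, at 0 to 0.0893 CPM, lay below RGW_Dgal (0.117 to 0.242), SFr (0.118 to 0.205) and SFr_Dgal (0.104 to 0.203), and overlapped with the other groups. Mdk did not pass the filter on low counts, so no difference in it was tested.

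Among the 5 tested members, Ptn was the one whose level moved most. Its group means spanned 3.76-fold, against 1.61-fold for Sdc3, 1.39-fold for Sdc1 and 1.18-fold for both Sdc2 and Sdc4. The means of Mdk, which rest on 0 to 7 counts a library, spanned 5.58-fold. Ptn was highest after SFr (17.4 ± 0.513 CPM, SD, n = 3), then after Rb2 (13.4 ± 0.883) and in SFr_Dgal (10.5 ± 0.934). SFr did not overlap with Rb2, nor Rb2 with SFr_Dgal. The next 4 groups, RGW at 9.58 ± 1.06, NSFr at 8.35 ± 0.624, Rb2_Dgal at 7.68 ± 0.896 and control at 7.48 ± 0.748 CPM, each overlapped with the next, and SFr_Dgal overlapped with RGW. RGW_Dgal (5.93 ± 0.276) lay below control and above NSFr_Dgal (5.24 ± 0.224) without overlap, and NSFr_Dgal overlapped with Dgal (4.63 ± 0.435), the lowest group. Counts behind these levels ran from 98 to 511 per library, so that counting alone gives an error of 10.1% in the lowest library and 4.42% in the highest. In bulk RNA, fewer cells of a type and less RNA per cell cannot be told apart.

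**Figure D2:**
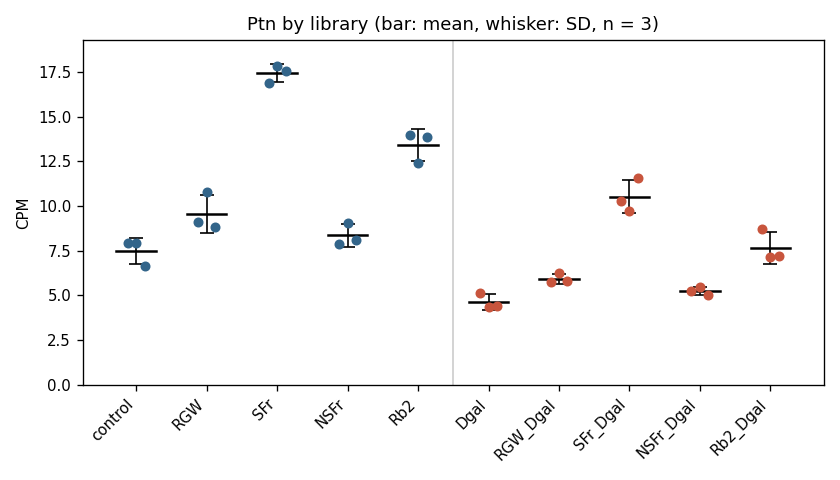
Ptn in CPM in each of the 30 libraries, with 1 point per library, a bar for the group mean and whiskers for the SD (n = 3); blue groups had no D-galactose and red groups had it. The 3 SFr libraries sit between 16.85 and 17.84 CPM, above all others, and each D-galactose group sits below its counterpart without D-galactose.

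Ptn was lower with D-galactose in each of the 5 backgrounds, with no overlap between the libraries. The control libraries held 6.62, 7.91 and 7.93 CPM and the Dgal libraries 4.37, 4.39 and 5.14 CPM. All 3 Dgal values lay below the lowest control value, a log2 difference of -0.70 ± 0.11 (SE; n = 3 per group throughout). The background comparisons that share no library with the choice of Ptn were those within RGW, SFr and NSFr.
After RGW, the libraries held 8.82, 9.12 and 10.8 CPM without and 5.74, 5.80 and 6.24 CPM with D-galactose. After SFr they held 16.9, 17.6 and 17.8 CPM without and 9.71, 10.3 and 11.5 CPM with it. After NSFr they held 7.90, 8.09 and 9.06 CPM without and 5.01, 5.27 and 5.45 CPM with it. Ptn fell in all 3: by 0.69 ± 0.097 on the log2 scale after RGW (adjusted p = 4.71e-06, edgeR's quasi-likelihood test with Benjamini-Hochberg adjustment over all 12184 genes tested), by 0.72 ± 0.080 after SFr (adjusted p = 3.36e-08) and by 0.67 ± 0.10 after NSFr (adjusted p = 1.58e-05). After Rb2 the difference was -0.81 ± 0.089, from 12.4 to 13.95 CPM without D-galactose to 7.14 to 8.71 CPM with it. In proportion, Ptn stood at 0.57 to 0.63 of its level without D-galactose in all 5 backgrounds. Cd68, given above, was higher with D-galactose in all 5 backgrounds. The mitochondrial share was higher without overlap in cultures without a preparation and after RGW, NSFr and Rb2. Within SFr it overlapped, at 1.12% to 1.36% without and 0.972% to 1.42% with D-galactose. The part of Cd68 and of this share in the fall of Ptn was not tested.

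Of the 4 syndecans, D-galactose against control called 3, 1 higher and 2 lower, where 25.1% of all tested genes were called. Within Rb2 it called 3 of 4, 1 higher and 2 lower (21.0% of all genes). Where Ptn can be counted too, 4 of 5 members were called within RGW, all lower (15.2%), 5 of 5 within SFr, 1 higher and 4 lower (19.0%), and 4 of 5 within NSFr, all lower (12.7%). For D-galactose against control the log2 fold changes were -0.15 for Sdc1, -0.14 for Sdc2, 0.30 for Sdc3 and -0.093 for Sdc4. The median over all genes tested was -0.0042.

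**Figure D3:**
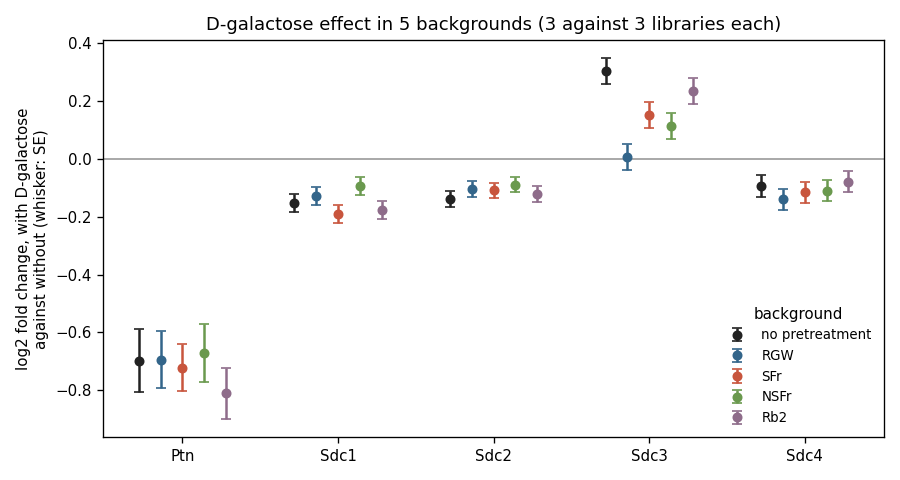
Log2 fold change with against without D-galactose for the 5 tested members (points, whiskers: SE) in cultures without a preparation and after RGW, SFr, NSFr and Rb2, 3 against 3 libraries each. The values of Ptn lie between -0.67 and -0.81 in the 5 backgrounds, and Sdc1, Sdc2 and Sdc4 lie just below 0. Sdc3 lies above 0, but after RGW, at 0.007 ± 0.046, its whisker spans 0.

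The D-galactose effect after a preparation minus that without one reuses the control libraries, so for Ptn it is a description: 0.0038 ± 0.14 (SE, log2 scale) for RGW, -0.024 ± 0.14 for SFr, 0.026 ± 0.15 for NSFr and -0.11 ± 0.14 for Rb2. Of the 4 syndecans, edgeR's test of these differences called 0 for RGW, SFr, NSFr and Rb2, where 0%, 0.583%, 0.0410% and 0% of all genes were called. At an unadjusted p under 0.05 by edgeR there were 1, 1, 1 and 0 syndecans, in each case Sdc3. Of all 12184 genes 1153, 1606, 862 and 546 were under it. The 4 differences share the control and Dgal libraries, so they do not repeat one another independently. DESeq2 called 1 syndecan for RGW, Sdc3, and 0 for the others. Over all genes DESeq2 called 21 for RGW, 108 for SFr, 16 for NSFr and 0 for Rb2.

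The saponin fraction gave the highest Ptn both without and with D-galactose. Against control the log2 difference was 1.21 ± 0.086, a 2.32-fold higher level. Under D-galactose, the SFr_Dgal libraries (9.71 to 11.5 CPM) lay above the Dgal libraries (4.37 to 5.14 CPM), a rise of 1.19 ± 0.10 (2.28-fold, adjusted p = 9.33e-12, edgeR). The non-saponin fraction at the same dose of 100 µg/mL did not pass the test under D-galactose (0.18 ± 0.12, adjusted p = 0.393, 95% interval -0.043 to 0.41), and stood at 0.16 ± 0.096 against control. SFr was compared with NSFr directly in a pair of tests, without and with D-galactose. Ptn was higher after SFr by 1.06 ± 0.084 (2.08-fold, adjusted p = 1.11e-12) and in SFr_Dgal by 1.01 ± 0.096 (2.01-fold, adjusted p = 1.18e-10). The summed fibroblast markers, higher in the SFr libraries, Cd68, also higher, and the summed myotube markers, lower in them, moved with these differences, and their part in them was not tested.

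Ginsenoside Rb2, a single purified saponin, was the treatment that led to the choice of Ptn. The Rb2 libraries held 12.4, 13.9 and 13.95 CPM against 6.62 to 7.93 CPM in control, a log2 difference of 0.84 ± 0.089 (1.79-fold). These values only describe the choice, and no count of members called is taken as a result there, where 1.53% of all genes were called. Under D-galactose, where no library is shared with that comparison, the Rb2_Dgal libraries held 7.14, 7.18 and 8.71 CPM against 4.37, 4.39 and 5.14 CPM in Dgal. The groups did not overlap, and Ptn rose by 0.72 ± 0.11 (1.65-fold, adjusted p = 7.31e-05, edgeR). Rb2_Dgal (7.68 ± 0.896 CPM) overlapped with the vehicle control (7.48 ± 0.748 CPM), a description only, since the control libraries were used to choose Ptn. Of the 5 members 2 were called in Rb2_Dgal against Dgal, 1 higher (Ptn) and 1 lower (Sdc2), beside 2.26% of all genes. Rb2 was used at 20 µM and SFr at 100 µg/mL, so their values (0.84 and 1.21 against control, 0.72 and 1.19 under D-galactose) stand side by side without a comparison.

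The whole water extract gave a smaller difference in Ptn. Against control it was 0.36 ± 0.094 (1.28-fold), with RGW at 8.82 to 10.8 CPM and control at 6.62 to 7.93 CPM. Under D-galactose it was 0.36 ± 0.11 and did not pass the test (adjusted p = 0.057, edgeR), although RGW_Dgal (5.74 to 6.24 CPM) and Dgal (4.37 to 5.14 CPM) did not overlap.

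**Figure D4:**
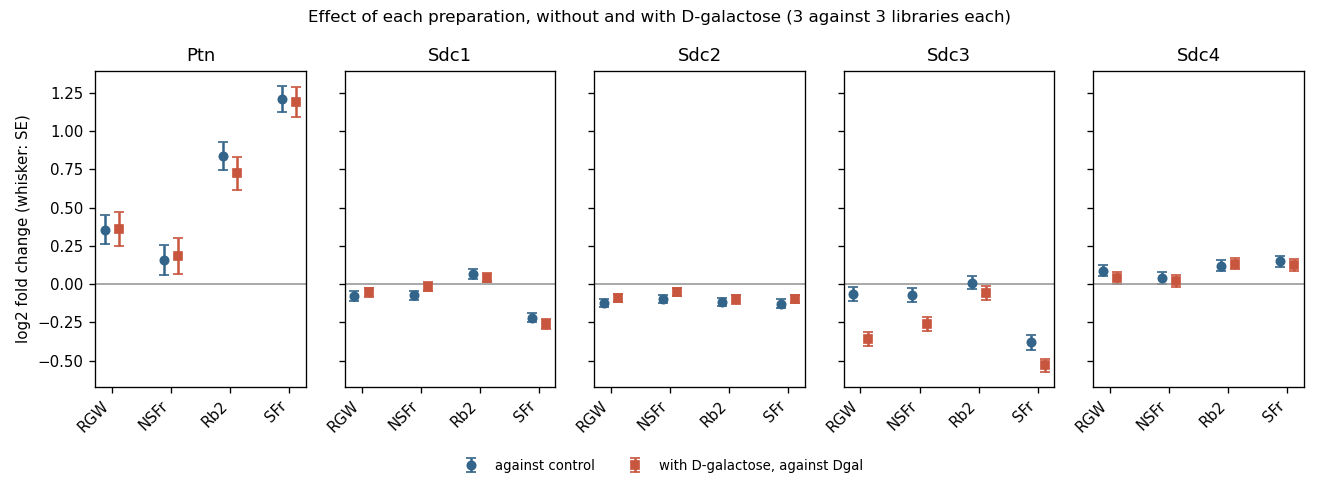
Log2 fold change of each preparation for the 5 tested members, against control (blue circles) and under D-galactose against Dgal (red squares), with whiskers for the SE and 3 against 3 libraries each. Ptn reaches 1.21 and 1.19 after SFr and 0.84 and 0.72 after Rb2, while Sdc3 lies lowest in SFr_Dgal at -0.53.

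Syndecan-3 was the syndecan with the widest span of group means, and it moved opposite to Ptn with D-galactose and after SFr. It rose with D-galactose, from 97.1, 97.2 and 103.9 CPM in control to 116.3, 124.5 and 126.7 CPM in Dgal, by 0.30 ± 0.045 (1.23-fold, adjusted p = 5.2e-06, edgeR). All 3 Dgal libraries lay above the control libraries. Its order from the highest was Dgal (122.5 CPM), Rb2_Dgal (117.7), then NSFr_Dgal (102), Rb2 (100) and control (99.4), which overlapped with each other, then RGW_Dgal (95.4), RGW (94.9) and NSFr (94.4), and at the bottom SFr_Dgal (84.7) and SFr (76.3), which did not overlap.
The rise with D-galactose was 0.24 ± 0.045 after Rb2 (adjusted p = 0.000256) and 0.15 ± 0.046 after SFr (adjusted p = 0.0172). After NSFr it was 0.11 ± 0.045 and missed the threshold (adjusted p = 0.0995). After RGW it was 0.007 ± 0.046 (adjusted p = 0.944), with 93.2, 94.4 and 97.3 CPM in RGW and 94.3, 95.7 and 96.2 CPM in RGW_Dgal, groups that overlapped. The difference between this and the effect without a preparation was -0.30 ± 0.064 (95% interval -0.42 to -0.17), with an adjusted p of 0.084 by edgeR and of 0.0318 by DESeq2. By edgeR it passed without control replicate 3 (adjusted p = 0.0368) and without Dgal replicate 1 (0.0367). The call within SFr was lost without SFr replicate 1 or 3 or SFr_Dgal replicate 1 or 3 (adjusted p from 0.0511 to 0.0738).

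Under D-galactose, 3 of the 4 preparations lowered Sdc3 relative to Dgal. It fell by 0.53 ± 0.045 in SFr_Dgal (adjusted p = 8.52e-12), where the libraries held 80.9, 86.3 and 86.9 CPM. It fell by 0.36 ± 0.045 in RGW_Dgal (adjusted p = 3.25e-06) and by 0.26 ± 0.045 in NSFr_Dgal, whose libraries held 95.9, 104.3 and 106.4 CPM (adjusted p = 0.000345). All 3 groups lay below the Dgal range of 116.3 to 126.7 CPM, which they share as the reference. In Rb2_Dgal it was -0.059 ± 0.045 and did not pass (adjusted p = 0.693, 95% interval -0.15 to 0.029). Without D-galactose Sdc3 fell after SFr, by 0.38 ± 0.046 (adjusted p = 1.75e-08), from 97.1 to 103.9 CPM in control to 74.3 to 79.2 CPM. After RGW and NSFr it was -0.066 ± 0.046 and -0.073 ± 0.046 and did not pass (adjusted p = 0.509 and 0.346). The difference of SFr from NSFr was -0.31 ± 0.046 (adjusted p = 1.05e-06), and that of SFr_Dgal from NSFr_Dgal -0.27 ± 0.045 (adjusted p = 8.8e-06). Exons of Sdc3 overlap the antisense genes Gm12970 and Gm26716, which are not in the table used here; the strand setting of the counting is not given in the sources used here, so their reads cannot be told apart from those of Sdc3.

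**Figure D5:**
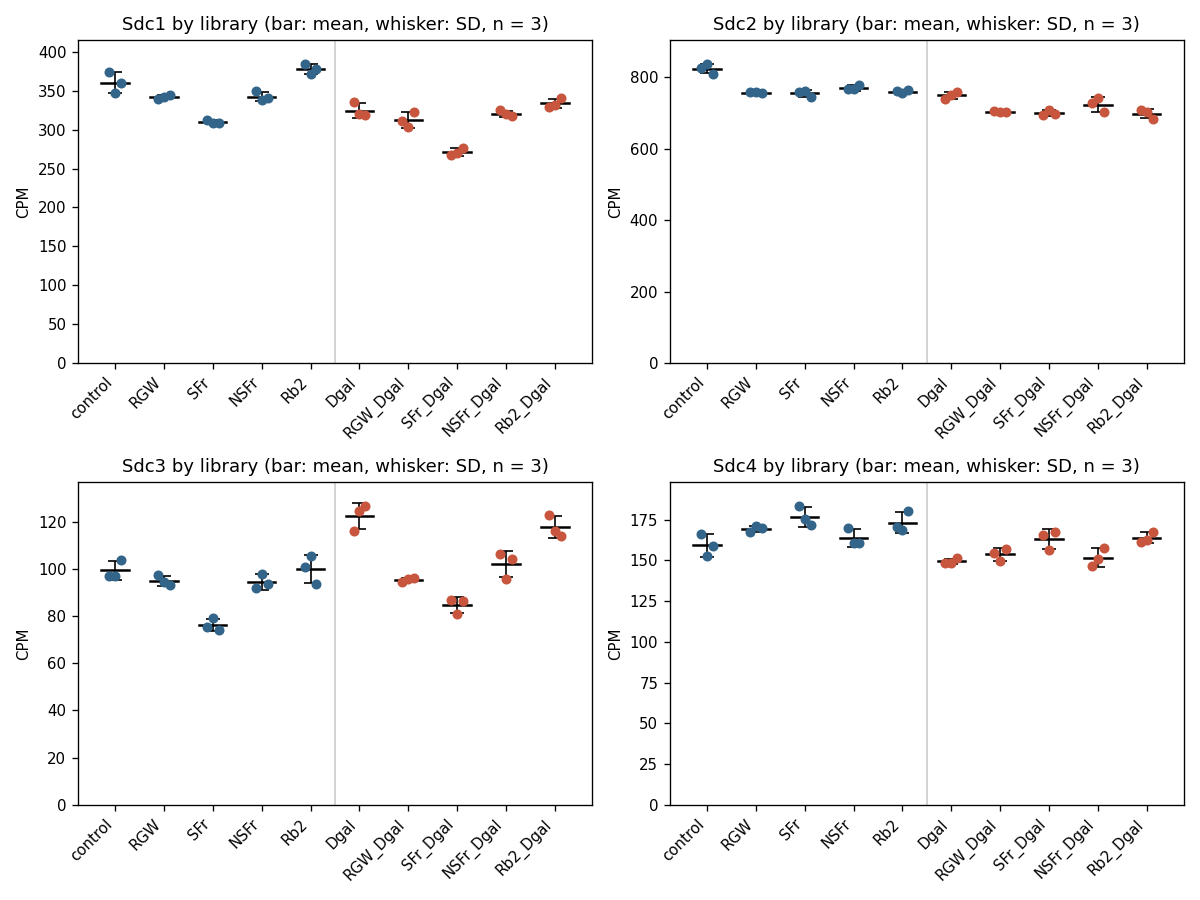
Sdc1, Sdc2, Sdc3 and Sdc4 in CPM in each library (points), with the group mean (bar) and SD (whiskers, n = 3); blue groups had no D-galactose and red groups had it, and each axis starts at 0. Sdc2 is highest in control at 825 CPM, Sdc3 is highest in Dgal at 122.5 CPM and lowest in SFr at 76.3, and Sdc1 is lowest in SFr_Dgal at 271 CPM.

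Syndecan-1, which in muscle cultures is known to be more abundant in proliferating myoblasts, was lower with D-galactose and after the saponin fraction. Control held 347.7, 360.1 and 374.4 CPM and Dgal 318.3, 320.1 and 335.4 CPM, with no overlap, a fall of 0.15 ± 0.031 (adjusted p = 0.000425). It fell within RGW by 0.13 ± 0.031 (adjusted p = 0.00375), within SFr by 0.19 ± 0.031 (adjusted p = 2.74e-05) and within Rb2 by 0.18 ± 0.031 (adjusted p = 8.77e-05). Within NSFr the fall of 0.095 ± 0.031 had an adjusted p of 0.0402 and was lost under 8 of 11 alternatives, and that within RGW was lost under 2, among them without RGW_Dgal replicate 2 (adjusted p = 0.0572). SFr lowered Sdc1 by 0.22 ± 0.031 against control (adjusted p = 4.48e-07) and by 0.26 ± 0.031 under D-galactose (adjusted p = 2.42e-08), to 267.0, 269.8 and 276.6 CPM in SFr_Dgal, the lowest of all groups and without overlap with the next. Against NSFr the difference was -0.15 ± 0.031 without D-galactose (adjusted p = 0.000267) and -0.24 ± 0.031 with it (adjusted p = 8.13e-08). Sdc1 did not pass the test after RGW or NSFr against control, or in RGW_Dgal, NSFr_Dgal or Rb2_Dgal against Dgal (adjusted p from 0.134 to 0.812). Rb2 alone had the highest mean, 378 ± 6.25 CPM, and overlapped with control.

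Syndecan-2, the most abundant member, was highest in control and lower in every treated group. The control libraries held 810.4, 827.3 and 837.4 CPM, above every other library. The other 9 means ran from 770.5 CPM in NSFr down to 698.9 CPM in Rb2_Dgal. D-galactose lowered it by 0.14 ± 0.027 (adjusted p = 0.000285), and SFr, RGW and NSFr by 0.13 (adjusted p = 0.000256), 0.12 (0.00791) and 0.099 (0.0209), each ± 0.027. After Rb2 the difference from control was -0.12 ± 0.027. These 5 comparisons share the control libraries. In comparisons without control, within the 4 preparations D-galactose lowered Sdc2 by 0.089 to 0.12, and under D-galactose it fell by 0.098 in SFr_Dgal (adjusted p = 0.00426), 0.10 in Rb2_Dgal (0.0404) and 0.09 in RGW_Dgal (0.049). The calls of Rb2_Dgal and RGW_Dgal were lost under 7 and 9 of 11 alternatives, that of NSFr against control under 6 and that within NSFr under 7. With only the compared groups fitted, the calls of SFr_Dgal against Dgal (adjusted p = 0.0879), RGW against control (0.199), RGW_Dgal against RGW (0.12) and SFr_Dgal against SFr (0.0957) were lost too. SFr did not differ from NSFr by the test (-0.029 ± 0.027, 95% interval -0.083 to 0.025, and -0.048 ± 0.027 under D-galactose, -0.10 to 0.0054). Its expected counts were not whole numbers in 24 of the 30 libraries, as RSEM gives where it divides reads among genes, while those of the other members were whole in every library.

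Syndecan-4, a partner of integrins in focal adhesions, had a narrow range. Its group means ran from 149.4 CPM in Dgal to 176.7 CPM in SFr, and every group overlapped with the next in this order. SFr raised it by 0.15 ± 0.037 against control (adjusted p = 0.00138), from 152.5, 159.1 and 166.4 to 171.6, 175.2 and 183.4 CPM, and by 0.13 ± 0.038 under D-galactose (adjusted p = 0.00728). It was higher in SFr than in NSFr by 0.11 ± 0.037 (adjusted p = 0.0174) and in SFr_Dgal than in NSFr_Dgal by 0.10 ± 0.037 (adjusted p = 0.0248), calls that were lost under 3 and 5 of 11 alternatives. D-galactose lowered it within RGW by 0.14 ± 0.037 (adjusted p = 0.00869, lost without RGW_Dgal replicate 2, 0.083). The falls within SFr (0.12 ± 0.037, adjusted p = 0.0245) and NSFr (0.11 ± 0.037, adjusted p = 0.0477) were lost under 5 and 6 of 11 alternatives, and the differences against control (-0.093 ± 0.038, adjusted p = 0.0679) and within Rb2 (-0.079 ± 0.037, adjusted p = 0.134) did not pass. In Rb2_Dgal against Dgal the difference was 0.13 ± 0.038 with an adjusted p of 0.0539 by edgeR and 0.044 by DESeq2.

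Counts of members called by preparation are given beside the share of all genes called. Against control, where Ptn is not counted, SFr called 4 of 4 syndecans (1 higher, 3 lower) where 43.1% of all genes were called, RGW 1 of 4 (lower) beside 3.21% and NSFr 1 of 4 (lower) beside 8.08%. With Ptn, SFr_Dgal against Dgal called 5 of 5 members (2 higher, 3 lower) where 41.3% were. SFr against NSFr called 4 of 5 (2 higher, 2 lower) beside 40.4%, and SFr_Dgal against NSFr_Dgal 4 of 5 (2 higher, 2 lower) beside 41.0%. RGW_Dgal against Dgal called 2 of 5 (both lower) beside 5.06%, and NSFr_Dgal against Dgal 1 of 5 (lower) beside 6.33%. Under the alternatives of the closing section, counts of members called include Ptn, against control as a description only. Counts of all genes called moved there too, as from 391 to 91 for RGW against control with only the groups compared. Those counts of members are therefore no result about the members.

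Across the 10 group means of log2 CPM, Ptn and Sdc4 had a Pearson correlation of 0.961 and Ptn and Sdc3 of -0.722. Ptn had correlations of 0.0234 with Sdc1 and 0.159 with Sdc2, and Sdc1 and Sdc2 of 0.65 with each other. The points are groups that share treatments and were scaled together, and the values are a description. Among 9616 candidate genes, the group means most like those of Ptn were those of Matn2 (matrilin 2, a matrix adaptor, r = 0.976), Ypel2 (0.971), Il1r1 (the interleukin 1 receptor, 0.968), Sesn1 (sestrin 1, a stress protein, 0.967) and Scara5 (a ferritin receptor, 0.963). Over the 30 libraries 3 of these 5, Matn2, Scara5 and Sesn1, were again among the 5 most alike. Scara5 had a wider spread of levels than Ptn, with 5.72 ± 0.804 CPM in Dgal, 11.5 ± 1.11 in control, 17.3 ± 0.716 after Rb2 and 32.8 ± 1.70 after SFr. From Dgal to SFr, Ptn went from 4.63 to 17.4 CPM. Matn2 went from 104.8 to 148.9 CPM, Ypel2 from 12.13 to 16.39, Il1r1 from 38.75 to 60.74 and Sesn1 from 56.2 to 73.02. These last changes were smaller in proportion than that of Ptn, so a high r is not a like size of change. For Sdc3 the most alike were Ccng1 (cyclin G1, r = 0.982), Exoc4 (0.973) and Zfp958 (0.972), and for Sdc1 Lmnb2 (lamin B2, 0.988), Sema3e (0.987) and Mtbp (0.983). For Sdc2 they were Wac (0.94), Tesk2 (0.938) and Ywhae (0.929), and for Sdc4 Phka1 (0.97), Rab3d (0.963) and Nras (0.962).

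The receptors through which pleiotrophin and midkine are known to signal were unevenly present. Ptprz1 had 32 counts in all 30 libraries and at most 6 in 1, and Alk had 7 counts with at most 1, so both were untested. Integrin beta 1 (Itgb1, 1249 to 1582 CPM in the group means), Lrp1 (759 to 1288), nucleolin (Ncl, 352 to 408), integrin alpha v (Itgav, 245 to 313), neuropilin 1 (Nrp1, 54.4 to 67.3) and integrin beta 3 (Itgb3, 42.1 to 52.7) were present throughout. Of the 18 receptors and partners on the list 15 were tested. D-galactose against control called 0 higher and 4 lower, beside 25.1% of all genes called: Itgav (-0.20), Itga6 (-0.25 ± 0.036, adjusted p = 2.88e-06), Itga4 (-0.41 ± 0.10) and Lrp6 (-0.20 ± 0.065). After SFr 3 were higher, Lrp8 (0.95 ± 0.12), Nrp1 (0.31) and Itgb3 (0.29), and 6 lower, beside 43.1% of all genes, led by Itga6 (-0.73 ± 0.037, adjusted p = 8.98e-18) and Ptprf (-0.56 ± 0.056). Lrp1 varied widely between libraries and was not called in any comparison. In Rb2_Dgal against Dgal 0 of the 15 were called by edgeR or DESeq2, where edgeR called 2.26% of all genes and DESeq2 280 genes. Of the 15, 2 had an unadjusted p under 0.05 by edgeR, as had 1448 of all 12184 genes. Counts near these shares are no result about the list.

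Genes that build or edit heparan sulfate chains, the sugar that carries the ligands on syndecans, numbered 24 tested. In SFr_Dgal against Dgal 3 were higher and 8 lower, beside 41.3% of all genes called, with the epimerase Glce at -0.35 ± 0.051. In Rb2_Dgal against Dgal 0 were called by edgeR or DESeq2, where edgeR called 2.26% of all genes and DESeq2 280 genes. Of the 24, 2 had an unadjusted p under 0.05 by edgeR, as had 1448 of all 12184 genes. The counts after SFr that follow are against control, where 43.1% of all genes were called, and a share of a list near that is no result about the list. Of 9 other heparan sulfate proteoglycans tested, 2 were higher and 3 lower after SFr, the latter Hspg2 (perlecan, -1.09 ± 0.23), Col18a1 (-1.07 ± 0.047) and Gpc6 (-0.44 ± 0.089). Of 10 tested matrix proteins that syndecans bind, 0 were higher and 6 lower after SFr, led by tenascin C (Tnc, -1.88 ± 0.17), Col5a1 (-1.18 ± 0.071) and Col1a1 (-0.90 ± 0.10), with a list median of -0.45 beside 5e-04 over all genes. Of 9 tested proteases that shed syndecans, SFr called 4 higher and 3 lower, with Mmp15 at -0.71 ± 0.039. Of 15 tested genes for chondroitin sulfate, 6 were higher, with Chst15 at 0.42 ± 0.043, and 2 lower. Of 13 tested cytoplasmic partners of syndecans, 3 were higher, with Fyn at 0.48 ± 0.032, and 2 lower. Of 13 tested genes of fibroblast and hepatocyte growth factor signalling, 5 were higher and 5 lower after SFr: Hgf went from 28.2 ± 0.623 CPM in control to 79.5 ± 3.18 CPM (1.5 ± 0.053, adjusted p = 9.86e-22), Fgf7 rose by 1.16 ± 0.093 and Fgf21 fell by 1.31 ± 0.098. In Rb2_Dgal against Dgal 1 gene of this list rose, Hgf (0.33 ± 0.056, adjusted p = 0.000458), and 1 fell, the decoy receptor Fgfrl1 (-0.29 ± 0.039), beside 2.26% of all genes called.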

How the data were processed

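Poly(A) RNA from 30 cultures of C2C12 myotubes, 10 groups of 3, was made into directional MGIEasy libraries, per the labels' protocols. The authors deposited expected counts per gene, estimated with RSEM 1.3.3. The submitters' processing notes also name STAR 2.7.9a, Trim Galore 0.6.10, FastQC 0.11.9 and the builds GRCm38 and mm10. Neither the annotation nor the strand setting is stated there. RSEM divides reads that match several genes, and 19.43% of the values were not whole.

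Groups came from the sample titles. Expected counts were rounded, and edgeR 4.0.16 in R 4.3.3 (quasi-likelihood F-test, robust, TMM scaling, filterByExpr) was fitted to the 10 groups together, on 30 libraries and 12184 genes. All 19 contrasts were adjusted over all genes tested by Benjamini-Hochberg, and a gene was called under 0.05. The common dispersion was 0.00181. The SE was derived from F as the size of the log2 fold change over the root of F. CPM use the total over tested genes times the TMM factor. RPKM divide CPM by the union of exons in kilobases in GENCODE vM21 (GRCm38). Promoters are from RefSeq (GRCm38.p6), which held entries for 4 of the 6 members. The test was checked on counts simulated for Dgal against control: of 50 changed genes per fold among 12080, it called 46 of those changed 1.3-fold, 43 of those changed 1.5-fold and all 50 at each of the larger folds of 2 and 4. It also called 7 unchanged genes. The simulated spread depended only on the level of a gene, and no fold below 1.3 was simulated. Smaller changes, as most of those of the syndecans were, are therefore not covered by this check.

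The members, the lists and the named genes were chosen with earlier results of these data known. Per list and comparison, up to 3 called genes of the largest change with a mean of at least 5 CPM and no overlap between groups could be named. Itgav, Itgb1, Itgb3, Ncl, Nrp1, Lrp1, Ptprz1 and Alk were always eligible. The text gives a part of these. Alternatives were RLE scaling, no filter, a block for the replicate number, DESeq2 1.42.0, only the groups compared, each library left out in turn and, for pattern neighbours, correlations over the 30 libraries. No library repeated another: chi-square per degree of freedom between replicates was 2.48 to 13.7 over 30 pairs. P-values measure the spread between these cultures of 1 line.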

Additional observations from a re-analysis of the deposited data

How the results depend on the processing

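Over the alternatives, with Rb2 against control left aside, 1001 of the member fold changes kept their direction and side of the threshold, 70 lost a call and 8 gained one. A further 31, none called, changed sign with 1 library left out. Such values ran from -0.0291 to 0.00878 for Sdc1 and -0.0043 to 0.0486 for Sdc4 in NSFr_Dgal against Dgal, and from -0.00678 to 0.0249 for Sdc3 in RGW_Dgal against RGW. For differences of the D-galactose effect they ran, for Ptn, from -0.0562 to 0.103 (RGW), -0.0977 to 0.0528 (SFr) and -0.0233 to 0.1 (NSFr), for Sdc1 from -0.00522 to 0.0479 (RGW) and -0.0571 to 0.00272 (Rb2), and for Sdc4 from -0.0561 to 0.00989 (SFr), -0.0549 to 0.0132 (NSFr) and -0.0237 to 0.0461 (Rb2). Ptn kept every call of the text under D-galactose and between SFr and NSFr. With only the groups compared, the members called, Ptn included, were 0 for RGW and NSFr against control, 1 for Rb2 against control and for RGW_Dgal against Dgal, 2 for RGW_Dgal against RGW and NSFr_Dgal against NSFr, and 3 for SFr_Dgal against SFr. Without a filter they were 0 for NSFr against control and 1 for RGW_Dgal against Dgal, Rb2_Dgal against Dgal and NSFr_Dgal against NSFr. RLE scaling gave 1 for RGW_Dgal against Dgal. DESeq2 gave 1 for the difference of the D-galactose effect after RGW, where it called 21 genes. The cause was not tested.

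The replicate numbers did not pair the samples: deviations of same-numbered libraries had a median correlation of 0.00386 (-0.193 to 0.157), and 10 of 30 libraries correlated best with a library of their own number. With the replicate block 1 member was called in RGW_Dgal against Dgal, and Sdc4 in Rb2_Dgal against Dgal had an adjusted p of 0.0428.

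Leaving out 1 library in turn gave, with Ptn counted, 1 to 2 members for RGW against control (1 without control 3 or RGW 2), 0 to 1 for NSFr against control, 1 to 2 for Rb2 against control (1 without control 2 or Rb2 1 or 2) and for RGW_Dgal and Rb2_Dgal against Dgal, 2 to 4 for RGW_Dgal against RGW, 3 to 4 for SFr_Dgal against SFr, 1 to 3 for NSFr_Dgal against NSFr, and 0 to 1 for the RGW difference. Sdc2 lost its call in NSFr against control without control 1 or 2 or NSFr 1 or 2 (adjusted p 0.0755 to 0.0993), in RGW_Dgal against Dgal without Dgal 2 or 3 or any RGW_Dgal library (0.0929 to 0.15), in Rb2_Dgal against Dgal without Dgal 2 or 3 or any Rb2_Dgal library (0.0652 to 0.217), and in NSFr_Dgal against NSFr without any NSFr library or NSFr_Dgal 1 or 3 (0.0537 to 0.204). Sdc1 lost it in NSFr_Dgal against NSFr without any of the 6 libraries (0.0676 to 0.167). Sdc4 lost it there without any library but NSFr_Dgal 3 (0.0677 to 0.238), in SFr_Dgal against SFr without SFr 1 or 2 or SFr_Dgal 2 (0.0602 to 0.19), in SFr against NSFr without SFr 1 or NSFr 2 or 3 (0.0647 to 0.123), and in SFr_Dgal against NSFr_Dgal without SFr_Dgal 1 or 3 or NSFr_Dgal 1 or 2 (0.05 to 0.162). Calls were gained by Sdc4 in Dgal against control without control 2 (0.0311) and by Sdc3 in NSFr_Dgal against NSFr without NSFr_Dgal 2 (0.0354).

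Counts of all genes called moved by over 1.5 times with only the groups compared: from 391 to 91 for RGW, 984 to 508 for NSFr and 187 to 106 for Rb2 against control, 617 to 348 for RGW_Dgal against Dgal, 1855 to 1154 within RGW, 2315 to 1466 within SFr, and for the differences of the D-galactose effect 71 to 13 (SFr) and 5 to 2 (NSFr). DESeq2 gave 108, 16 and, for RGW, 21 such differences in place of 0. Leaving out 1 library moved these counts as far as 196 for RGW (RGW 1; also RGW 3, control 1 or 2), 592 for NSFr (control 2; also NSFr 1 or 2) and 115 for Rb2 (control 3) against control. Against Dgal they reached 342 for RGW_Dgal (Dgal 3; also RGW_Dgal 2), 353 in place of 771 for NSFr_Dgal (Dgal 3; also Dgal 2 or any NSFr_Dgal library) and 126 in place of 275 for Rb2_Dgal (Dgal 2; also any Rb2_Dgal library), and within Rb2 1672 in place of 2562 (Rb2_Dgal 2). The differences of the D-galactose effect then numbered 37 (without Dgal 2) to 140 (without control 3) for SFr, 0 (without control 2 or Dgal 2) to 12 (without Dgal 1) for NSFr and up to 9 (without Dgal 1) for RGW.

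Depth limited Mdk (at most 7 counts a library), and no call rests on it. Of the pattern neighbours, 1 of 3 for Sdc1, 2 of 3 for Sdc3 and 0 of 3 for Sdc2 and Sdc4 were again found over the 30 libraries.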
